A study of Mus musculus with 6 samples.

Results

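Expression of the genes that make cholesterol and fatty acids was compared between WT and dt27J mice in dorsal root ganglia, which hold the cell bodies of sensory neurons and the glia around them. The list held 33 genes by name, 21 of the sterol pathway and its regulators and 12 of fatty acid synthesis, desaturation and elongation and of myelin galactolipids. Every non-control probe whose transcript accession belongs to a listed gene was taken. This gave 53 of 41174 probes, for 20 sterol genes (35 probes) and 12 fatty acid genes (18 probes), and no probe matched Idi1, the isopentenyl diphosphate isomerase. All 53 probes were well above background on the 3 arrays of at least 1 genotype and were tested, and 51 of them were well above background on all 6 arrays.

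Whole ganglia were taken at postnatal day 4 from 3 WT littermate controls and 3 dt27J animals of the C57BL/6 background, out of 2 litters, and each RNA went to its own single-colour array. The dt27J allele is a germline mutation of Dst, the gene of the cytoskeletal linker dystonin, and the series calls this age a stage before the phenotype. The labels carry 2 dates, with replicates 1 and 2 of both genotypes on the first and replicate 3 of both on the second. A value below is the log2 signal of a probe minus the 75th percentile of its array, a difference is dt27J minus WT on that scale, and values for a gene are given in the order of replicates 1, 2 and 3. Where a gene had several probes, its brightest stands for it and the others are named where they differ. In whole tissue, fewer cells of a type and less RNA per cell cannot be told apart.

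Cholesterol is built from acetyl-CoA through mevalonate, farnesyl diphosphate, squalene and lanosterol, and the transcripts of nearly all these enzymes are driven by the membrane-bound factor encoded by Srebf2. When sterols are plentiful, the protein of Insig1 holds this factor and its escort Scap in the endoplasmic reticulum, so the transcripts fall. The related factor of Srebf1 acts mainly on fatty acid synthesis. In peripheral nerve, Schwann cells make most of the cholesterol and fatty acids of their myelin themselves, and sensory neurons need both for axon membrane.

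The promoters of a few members are shown because the sterol transcripts are known for shared control through these sites. RefSeq promoter windows of build GRCm38.p6, from 250 bases before the gene start to 50 after it, were found for 25 of the 33 listed genes, 17 sterol and 8 fatty acid. Searched on both strands were 2 overlapping forms of the sterol regulatory element (TCACNCCAC and ATCACNCCA), the CCAAT box of the partner factor NF-Y (CCAAT), the GC box of Sp1 (GGGCGG) and the E box (CACGTG). Below, the 250 bases before the start are written in the direction of the gene, with either form of the sterol element and the CCAAT box in capitals (ATTGG is CCAAT on the other strand).
Hmgcs1 (chr13:119690101-119690350, plus strand): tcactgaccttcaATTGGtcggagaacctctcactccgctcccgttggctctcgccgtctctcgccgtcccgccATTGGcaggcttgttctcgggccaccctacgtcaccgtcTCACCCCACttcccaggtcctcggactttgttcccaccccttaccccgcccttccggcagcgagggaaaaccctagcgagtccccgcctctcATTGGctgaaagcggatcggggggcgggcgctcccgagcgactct
Srebf2 (chr15:82147019-82147268, plus strand): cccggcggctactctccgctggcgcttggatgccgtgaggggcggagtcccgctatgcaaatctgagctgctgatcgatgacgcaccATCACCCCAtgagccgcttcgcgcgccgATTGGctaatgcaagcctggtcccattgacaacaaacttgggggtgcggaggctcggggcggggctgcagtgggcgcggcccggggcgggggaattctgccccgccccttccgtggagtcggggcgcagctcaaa
Insig1 (chr5:28071162-28071411, plus strand): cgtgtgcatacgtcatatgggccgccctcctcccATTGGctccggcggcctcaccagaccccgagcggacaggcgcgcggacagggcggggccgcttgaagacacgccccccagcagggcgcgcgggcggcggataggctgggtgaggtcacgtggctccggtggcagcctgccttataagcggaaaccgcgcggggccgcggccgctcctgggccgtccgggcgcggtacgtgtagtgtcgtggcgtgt
Mvk (chr5:114444019-114444268, plus strand): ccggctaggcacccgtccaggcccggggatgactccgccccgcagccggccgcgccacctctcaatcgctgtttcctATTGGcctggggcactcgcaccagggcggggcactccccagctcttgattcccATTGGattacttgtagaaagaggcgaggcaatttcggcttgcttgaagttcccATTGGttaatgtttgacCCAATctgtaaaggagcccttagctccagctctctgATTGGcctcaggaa
Fasn (chr11:120824548-120824797, minus strand): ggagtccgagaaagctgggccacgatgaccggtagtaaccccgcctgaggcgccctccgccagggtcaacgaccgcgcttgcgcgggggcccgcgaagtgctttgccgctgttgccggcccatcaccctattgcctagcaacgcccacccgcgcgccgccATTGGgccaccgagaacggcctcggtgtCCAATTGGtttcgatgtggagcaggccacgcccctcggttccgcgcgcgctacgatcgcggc

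Hmgcs1 alone among the 25 held TCACNCCAC, 137 bases before its start, and Srebf2 alone held ATCACNCCA, 163 bases before its start. These forms were in 1.44% and 0.992% of the 27025 genes with a window. The CCAAT box was in 16 of 17 sterol genes (94.1%), in 4 of 8 fatty acid genes and in 41.1% of all genes. The Mvk window held 5 copies, the Hmgcs1 window 4 (1 of them after the start and so not in the bases above), the Fasn window 3 and the windows of Insig1 and Srebf2 1 each. GC boxes were in 16 sterol genes, 4 fatty acid genes and 38.2% of all genes, and E boxes in 4, in 1 and in 8.09%. These matches describe letters in a fixed window.

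Several facts of the whole series bear on what follows. Dst was lower on every dt27J array, with a fall of 2.68 on the log2 scale (SE 0.26, adjusted p = 0.0341) by limma on its brightest probe. Over all tested probes 838 of 26248 passed an adjusted p of 0.05 (3.19%), with 494 lower (1.88%) and 344 higher (1.31%). Markers of spinal cord and oligodendrocytes (9 of 13 measured) had summed linear levels of 25.5 and 21.3 on WT 1 and WT 2, and between 0.997 and 2.33 on the other 4 arrays, where a level of 1 is the 75th percentile of the array. Mog, Opalin, Slc6a5 and Lhx5 of that list were not above background often enough to be tested. Within the first date, then, WT and dt27J also differ in these markers, by a median of -4.15, while within the second date the median is -0.11. Xist, a transcript of the inactive X chromosome of females, was well above background on 1 WT and 2 dt27J arrays, so the sexes may not be balanced. This rests on the detection of 1 probe.

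Sterol genes stood lower in dt27J ganglia as a group, though no single gene passed the test on its brightest probe. Of the 20 genes, 17 had a negative difference, the median was -0.48, and the values ran from -1.14 for Mvk to 0.45 for Acat2. Over all 13675 named genes 52.4% were negative and the median was -0.03. The sterol median on each array, relative to the WT mean of each gene, was 0.06, 0.02 and -0.03 in WT and -0.48, -0.38 and -0.34 in dt27J, so the array medians of the genotypes did not overlap. For 10 of the 20 genes (50%) every dt27J array was lower than any WT array, against 16.3% of all named genes, and for 0 did every dt27J array lie above, against 13.6%. By limma 0 of 20 genes had an adjusted p under 0.05 (2.87% of all named genes did, 1.52% lower and 1.35% higher), and 6 of 20 (30%) were lower at an unadjusted p under 0.05, against 14.8%. Among the 35 probes 1 passed as lower, on Insig1 (2.86%, against 1.88% of all tested probes).

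**Figure D1:**
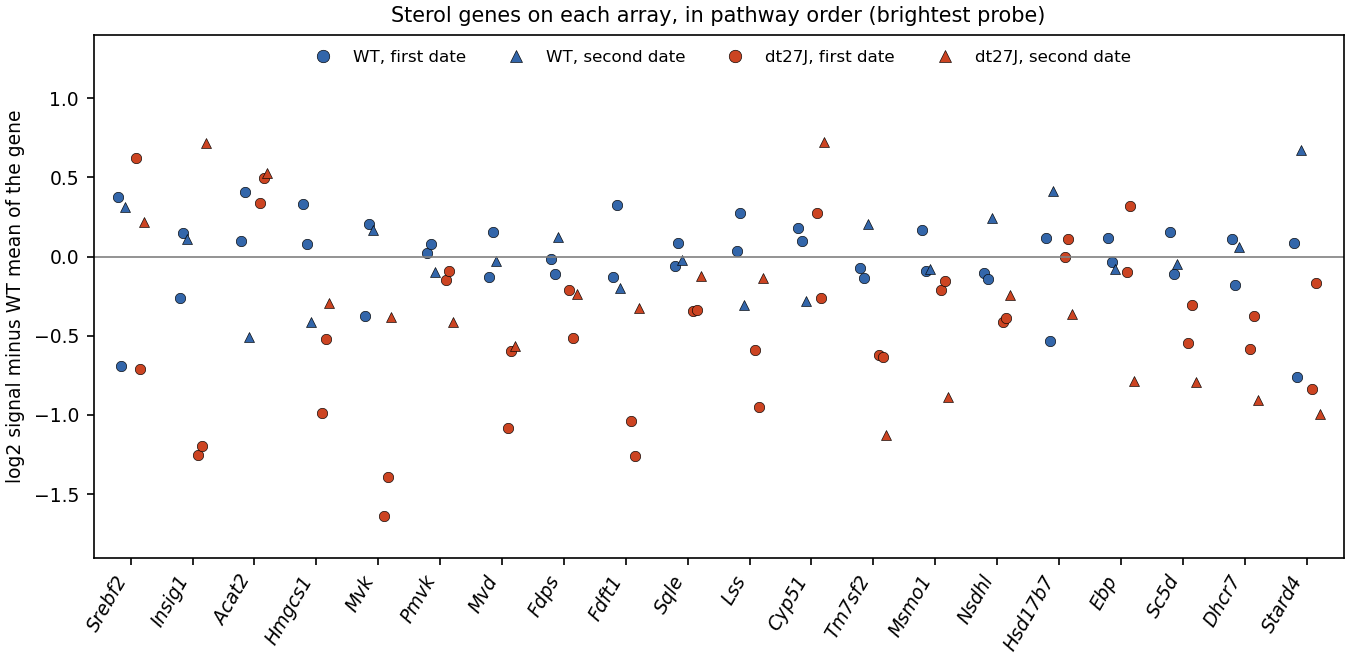
Log2 signal of each sterol gene (brightest probe) minus its mean over the 3 WT arrays, for every array; blue points are WT, red points dt27J, circles the first label date and triangles the second. The red points lie below all blue points for 10 of 20 genes, among them Mvk, Mvd and Tm7sf2, and the red triangle of Insig1 lies far above the red circles.

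Among the regulators was the only member probe called. Insig1, whose protein retains the escort and the factor in the endoplasmic reticulum and whose transcript is itself a target of the factor, had 2 probes. Its dimmer probe read -3.01, -2.72 and -3.03 in WT and -4.14, -4.03 and -4.10 in dt27J. All 3 dt27J arrays were lower than all 3 WT arrays, and its log2 difference was -1.17 (SE 0.19, adjusted p = 0.0466) by limma, a fall to 44.5% of the WT signal, with a 95% interval of the difference of -1.63 to -0.70. Within the dates the differences were -1.22 and -1.07. Insig1 on the brighter probe read -1.79, -1.38 and -1.42 in WT and -2.79, -2.73 and -0.81 in dt27J. There the first 2 dt27J arrays were low and dt27J 3 was the highest of all 6, and the difference of -0.58 had an adjusted p of 0.36. The call on the dimmer probe was lost in several alternatives. Its adjusted p by limma was 0.0586 without the date term, 0.0933 without a filter on dim probes and 0.264 after normexp background correction, where the difference was -0.35. With the authors' deposited values the difference was -0.66 and the adjusted p 0.0529, and without WT 1, WT 2, dt27J 1 or dt27J 2 the adjusted p lay between 0.0969 and 0.248.

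Srebf2, the factor itself, had a difference near 0 with a wide interval on its brighter probe. That probe read -0.09, -1.16 and -0.15 in WT and 0.16, -1.17 and -0.25 in dt27J, a difference of 0.04 (SE 0.42, adjusted p = 0.958) with an interval of -0.96 to 1.05. WT 2 and dt27J 2 were the low arrays there, and the genotypes overlapped. The dimmer Srebf2 probe read -4.77, -3.60 and -4.94 in WT and -6.14, -5.84 and -5.44 in dt27J, with the groups apart and a difference of -1.37 (SE 0.40, adjusted p = 0.0895), and it was well above background on 1 of 3 dt27J arrays. The escort gene Scap, which is not among the listed members, stood at -0.51 (SE 0.19, adjusted p = 0.145), with every dt27J array below every WT array.

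In the mevalonate arm stood Mvk, mevalonate kinase, which had the largest difference of any member on its brightest probe. It read 1.55, 2.13 and 2.09 in WT and 0.29, 0.53 and 1.54 in dt27J on its brighter probe. Every dt27J array was lower than any WT array, dt27J 3 by the smallest margin, and the difference of -1.14 (SE 0.28, adjusted p = 0.0662) left 45.5% of the WT signal. A second Mvk probe gave -1.15 with an adjusted p of 0.0663. Mvd, the decarboxylase that makes isopentenyl diphosphate, read 2.38, 2.67 and 2.48 in WT and 1.43, 1.91 and 1.94 in dt27J. Its groups were also apart, with a difference of -0.75 (SE 0.23, adjusted p = 0.0951).

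Hmgcs1, which makes the HMG-CoA that feeds mevalonate, read 7.25, 7.00 and 6.51 in WT and 5.93, 6.40 and 6.63 in dt27J. WT 1 and WT 2 were high and dt27J 1 and dt27J 2 low, but dt27J 3 lay above WT 3, and the difference was -0.60 (SE 0.29, adjusted p = 0.232). Its dimmer probe showed the same split more widely, at -0.85 in the first date and 0.96 in the second. Fdps, farnesyl diphosphate synthase, read 3.82, 3.73 and 3.97 in WT and 3.63, 3.32 and 3.60 in dt27J. The groups did not overlap, by a small margin, and the difference was -0.32 (SE 0.19, adjusted p = 0.319). Pmvk, phosphomevalonate kinase, stood at -0.22 and -0.19 on its 2 probes (adjusted p = 0.469 and 0.541). Acat2, the cytosolic thiolase that makes acetoacetyl-CoA, was the member with the highest positive difference. It read -0.16, 0.16 and -0.76 in WT and 0.09, 0.24 and 0.28 in dt27J, where WT 3 was the low array and the dt27J arrays lay within or just above the range of WT 1 and WT 2, and the difference was 0.45 (SE 0.25, adjusted p = 0.285).

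Squalene and lanosterol formation came next. Fdft1, squalene synthase, read 2.09, 2.54 and 2.02 in WT and 1.17, 0.96 and 1.89 in dt27J, with dt27J 1 and dt27J 2 well below WT and dt27J 3 just below it, a difference of -0.87 (SE 0.29, adjusted p = 0.118). A far dimmer Fdft1 probe stood at 0.23 (SE 0.31). Sqle, squalene epoxidase, read 3.68, 3.82 and 3.71 in WT and 3.40, 3.40 and 3.61 in dt27J. Its groups were apart by a small margin, and the difference was -0.27 (SE 0.19, adjusted p = 0.389). Lss, lanosterol synthase, stood at -0.56 and -0.45 on its 2 probes (adjusted p = 0.253 and 0.417), with -0.92 in the first date and 0.17 in the second on the brighter.

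Among the 8 enzymes between lanosterol and cholesterol, 5 had every dt27J array below every WT array and 7 had a negative difference. These genes are part of the sterol counts given above, and the shares over all named genes were 16.3% and 52.4%. Tm7sf2, a sterol reductase, read 4.69, 4.62 and 4.97 in WT and 4.14, 4.13 and 3.63 in dt27J. All 3 dt27J arrays were low, dt27J 3 most of all, and the difference was -0.79 (SE 0.23, adjusted p = 0.0902). Dhcr7, which makes cholesterol from its last precursor, read 4.92, 4.63 and 4.87 in WT and 4.23, 4.43 and 3.91 in dt27J on the brighter probe. Both Dhcr7 probes had groups apart, with differences of -0.62 (SE 0.22) and -0.67 (SE 0.20) and adjusted p values of 0.129 and 0.0946. Sc5d, the sterol desaturase before it, read 2.75, 2.49 and 2.55 in WT and 2.05, 2.29 and 1.81 in dt27J, a difference of -0.55 (SE 0.20, adjusted p = 0.145). The methyl oxidase Msmo1 read 5.74, 5.48 and 5.49 in WT and 5.36, 5.42 and 4.68 in dt27J. Here dt27J 3 alone was far below WT, and the difference was -0.42 (SE 0.22, adjusted p = 0.26).

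Nsdhl, the decarboxylating sterol dehydrogenase, stood at -0.35, -0.22 and -0.05 on 3 probes, with the groups apart on the brightest only (adjusted p = 0.269). The isomerase Ebp stood at -0.19 (SE 0.25) and the reductase Hsd17b7 at -0.08 (SE 0.30), and in both the genotypes overlapped. Cyp51, the lanosterol demethylase, differed between its probes. The 2 that were brightest read -0.15, -0.23 and -0.61 in WT and -0.06, -0.59 and 0.39 in dt27J and -0.45, -0.44 and -0.43 in WT and -0.32, -0.35 and -1.86 in dt27J. On the first of these dt27J 3 was the highest array and on the second the lowest, so the second-date differences were 1.002 and -1.43, and the differences over all arrays were 0.25 (SE 0.30) and -0.41 (SE 0.33). Stard4, a carrier of cholesterol between membranes, also split, with its brightest probe at -0.66 (SE 0.41) and the dimmer 2 at 0.58 (SE 0.29) and 0.44 (SE 0.23).

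**Figure D2:**
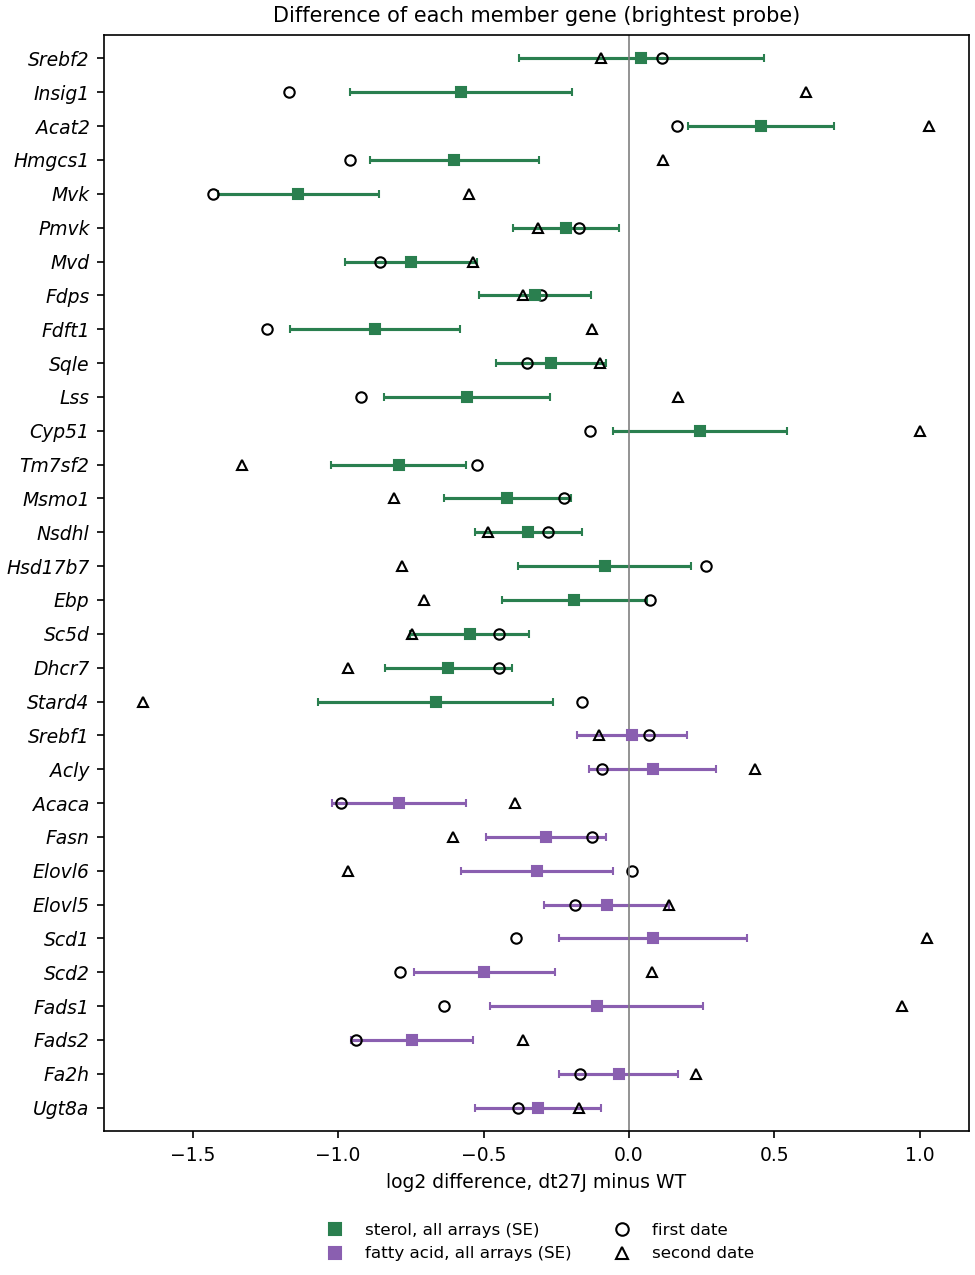
Log2 difference, dt27J minus WT, of each member gene on its brightest probe, with the standard error of the limma fit (squares with bars), beside the difference within the first date (circles) and within the second (triangles). Most sterol genes (green) lie left of 0, from -1.14 for Mvk, and the 12 fatty acid genes (purple) lie between -0.79 and 0.08.

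The fatty acid genes had a smaller median difference. Of 12 genes, 9 had a negative difference, the median was -0.20 and the range was -0.79 (Acaca) to 0.08 (Scd1). The median was -0.059 without dt27J 2, and -0.13 both with median scaling and with the mean of the probes of a gene. The median on each array was 0.09, 0.11 and -0.22 in WT and -0.22, -0.36 and -0.34 in dt27J, so WT 3 and dt27J 1 had nearly the same value. Every dt27J array was lower than any WT array for 2 of 12 genes (16.7%), close to the 16.3% of all named genes. By limma 0 of 12 genes and 0 of 18 probes passed, and 2 of 12 genes were lower at an unadjusted p under 0.05 (16.7%, against 14.8% of all named genes).

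The 2 genes with groups apart were Acaca and Fads2. Acaca, acetyl-CoA carboxylase, which makes the malonyl-CoA for chain growth, read -0.66, -0.54 and -0.57 in WT and -1.79, -1.39 and -0.96 in dt27J on its brightest probe. The 3 WT arrays lay close together and all dt27J arrays were lower, a difference of -0.79 (SE 0.23, adjusted p = 0.0881), or 57.8% of WT. Its 3 dimmer probes stood at -0.61, -1.13 and -0.28. Fads2, the first desaturase of the long polyunsaturated chains, read 0.83, 0.82 and 0.29 in WT and -0.06, -0.17 and -0.07 in dt27J. The dt27J arrays were close together and below all WT arrays, and the difference was -0.75 (SE 0.21, adjusted p = 0.0833).

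Fasn, the fatty acid synthase itself, read 6.88, 6.67 and 7.06 in WT and 6.61, 6.69 and 6.46 in dt27J. Its groups overlapped, the difference was -0.29 (SE 0.21, adjusted p = 0.4) with an interval of -0.78 to 0.20, and a dimmer probe stood at 0.01. Acly, which supplies cytosolic acetyl-CoA from citrate, read 1.50, 1.24 and 1.25 in WT and 1.16, 1.38 and 1.68 in dt27J, a difference of 0.08 (SE 0.22, adjusted p = 0.832) with dt27J 3 the highest array. Srebf1 read 4.29, 4.10 and 3.74 in WT and 4.33, 4.21 and 3.63 in dt27J. Replicate 3 was the low array of both genotypes there, and the difference of 0.01 (SE 0.19, adjusted p = 0.976) had an interval of -0.44 to 0.46.

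The desaturases differed from each other in how they split by date. Scd2, the stearoyl-CoA desaturase of nervous tissue, read 6.84, 6.89 and 6.45 in WT and 6.00, 6.15 and 6.53 in dt27J, with dt27J 1 and dt27J 2 below all WT arrays and dt27J 3 above WT 3, a difference of -0.50 (SE 0.24, adjusted p = 0.233). Scd1, its relative of liver and fat, read 1.92, 2.29 and 1.81 in WT and 1.73, 1.70 and 2.83 in dt27J. There dt27J 3 was the highest array and the difference was 0.08 (SE 0.32, adjusted p = 0.887). Fads1, the second desaturase of the polyunsaturated chains, read 0.36, 0.996 and 0.32 in WT and 0.10, -0.01 and 1.26 in dt27J, again with dt27J 3 highest and a difference of -0.11 (SE 0.37, adjusted p = 0.865).

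The elongases and the galactolipid genes complete the list. Elovl6, which extends palmitate, stood at -0.32 (SE 0.26) and was highest on WT 3. Elovl5, an elongase of polyunsaturated chains, gave -0.08 (SE 0.22) on its brighter probe and 0.80 (SE 0.26) on a dimmer one, where every dt27J array lay above every WT array (adjusted p = 0.107). Fa2h and Ugt8a make the hydroxylated galactolipids of myelin. Fa2h read 0.04, 0.10 and -0.73 in WT and 0.05, -0.25 and -0.50 in dt27J and stood at -0.04 (SE 0.21), and Ugt8a stood at -0.31 (SE 0.22) and -0.40 (SE 0.31) on its probes. Both genes were lower in replicate 3 than in the WT arrays of the first date, whichever the genotype.

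**Figure D3:**
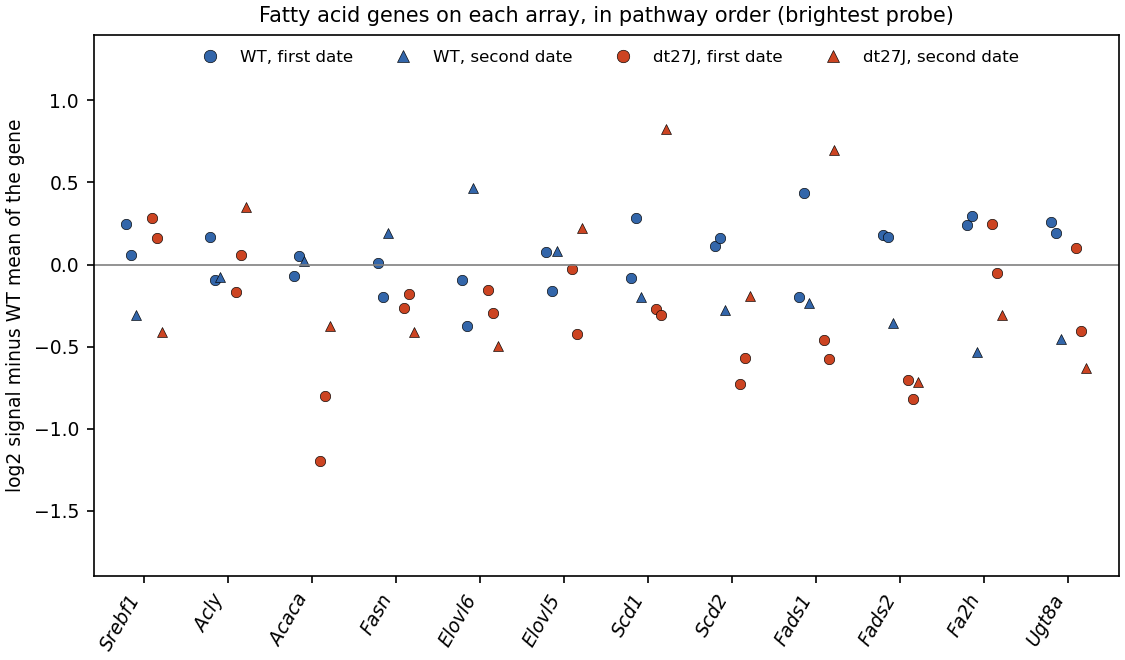
Log2 signal of each fatty acid gene (brightest probe) minus its mean over the 3 WT arrays, for every array, with colours and symbols for genotype and label date. Only Acaca and Fads2 have all red points below all blue points, and the red triangle is the highest point for Scd1, Fads1, Acly and Elovl5.

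Set side by side, the median difference of the sterol genes was lower than that of the fatty acid genes by 0.28 (-0.48 against -0.20). No test was made of this contrast, since the lists were chosen with results of these data known. On single arrays the sterol median minus the fatty acid median was -0.04, -0.09 and 0.19 in WT and -0.26, -0.03 and 0.00 in dt27J, so the genotypes were close to each other on this measure apart from WT 3 and dt27J 1. Within the first date the contrast was -0.04 (-0.33 against -0.28) and within the second -0.41 (-0.42 against -0.01). The contrast was thus larger in the second date, which holds 1 array per genotype. Over all 13675 named genes the median was 0.03 within the first date and -0.15 within the second.

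Sterol genes below 0 in both dates, and fatty acid genes that turned from below to above 0, exceeded the all-gene shares. In the sterol list 12 of 20 genes were below 0 in both dates (60%, against 31.8% of all named genes), and Insig1, Hmgcs1, Lss and Cyp51 were below 0 in the first and above 0 in the second (4 of 20, against 16.3% of all named genes). In the fatty acid list 4 of 12 were below 0 in both dates (33.3%), and 6 (50%) were below 0 in the first and above 0 in the second, namely Acly, Elovl5, Scd1, Scd2, Fads1 and Fa2h. By stage, the enzymes from squalene to lanosterol had medians of -0.92 and -0.10 in the first and second date, the mevalonate arm -0.58 and -0.34, and the enzymes from lanosterol to cholesterol -0.25 and -0.76. The 4 desaturases stood at -0.71 and 0.51. A test of the difference between dates (limma interaction) called 0 of 53 member probes and 17 at an unadjusted p under 0.05 (32.1%), beside 0.831% and 27.5% of all tested probes.

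With the first date alone, 2 arrays per genotype, 6 of 20 sterol genes and 3 of 12 fatty acid genes were lower at an adjusted p under 0.05. These were Mvk, Fdft1, Insig1, Hmgcs1, Lss and Mvd, and Acaca, Fads2 and Scd2. In probes, 14 of 53 member probes were lower and 1 higher, beside 6805 of all 26248 tested probes that passed in either direction. The share of all named genes called lower is not given for this setting. No excess of the members over other genes is therefore read from these counts. Both WT arrays of this date had high spinal cord and oligodendrocyte markers, whose part in these calls was not tested. Leaving out WT 3 or dt27J 3 gave the same values, since the date term then takes up the array that remains.

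**Figure D4:**
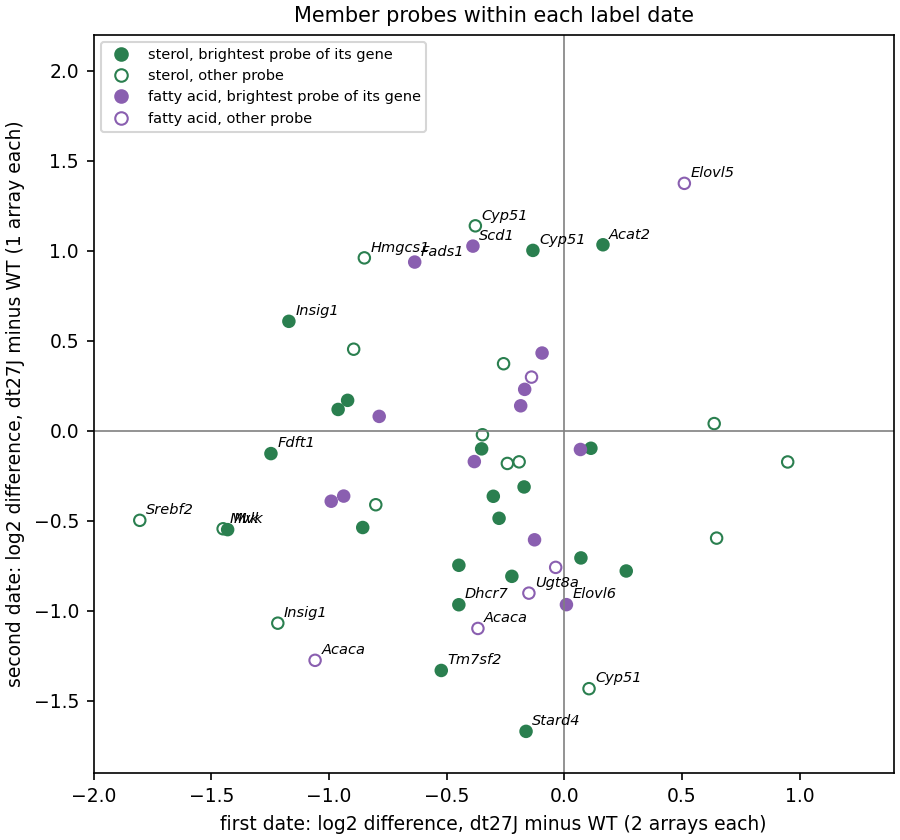
Log2 difference of each of the 53 member probes within the first label date (horizontal, 2 arrays per genotype) and within the second (vertical, 1 array per genotype); filled points are the brightest probe of a gene and open points its other probes. The dimmer Insig1 probe and probes of Mvk, Acaca and Tm7sf2 lie at the lower left, below 0 in both dates, while Scd1, Fads1 and 1 Hmgcs1 probe are below 0 in the first and near 1 in the second.

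Other genes of sterol synthesis, uptake and trafficking, listed beside the members, had 0 of 13 measured genes past the test, a median of -0.16 and 9 negative differences, with 3 genes at an unadjusted p under 0.05. Scarb1 (0.16), Lrp1 (-0.16), Apoe (-0.01), Insig2 (-0.12), Ggps1 (-0.23) and Mbtps1 (0.51) had adjusted p values above 0.25. Npc1 and Npc2, which move cholesterol out of lysosomes, were the genes of this list with every dt27J array above every WT array, at 0.52 (SE 0.20) and 0.49 (SE 0.21) (adjusted p = 0.145 and 0.186).

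Other genes of fatty acid synthesis had a lower median than the 12 listed ones, a contrast that was not tested. Of 24 measured, 20 had a negative difference, the median was -0.40, and for 9 every dt27J array was lower than any WT array (37.5%, against 16.3% of all named genes). Their array medians were 0.10, 0.00 and 0.01 in WT and -0.47, -0.40 and -0.44 in dt27J. Fads6, a desaturase-like gene, was the 1 that passed. It read -3.97, -4.18 and -4.07 in WT and -5.18, -5.51 and -5.54 in dt27J, fell by 1.33 on the log2 scale (SE 0.20, adjusted p = 0.0437), and was well above background on 1 of 3 dt27J arrays. Tecr, the last enzyme of the elongation cycle, read 3.43, 3.94 and 3.26 in WT and 2.84, 2.75 and 2.48 in dt27J, a difference of -0.85 (SE 0.21, adjusted p = 0.0687), and the citrate carrier Slc25a1 stood at -0.73 (SE 0.22, adjusted p = 0.0981).

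Markers of the cell types that the dissected tissue could hold are given beside these lists. Sensory neuron markers (14 of 14 measured) had a median difference of -0.58 and array medians of -0.02, 0.02 and 0.08 in WT and -0.83, -0.69 and -0.23 in dt27J, and their summed level was 879 to 978 in WT and 648 to 811 in dt27J. By limma 2 of them were lower. Markers of myelinating Schwann cells (16 of 17 measured) stood at a median of 0.27, with array medians of 0.12, 0.11 and -0.13 against 0.51, 0.25 and 0.09, and summed levels of 453 to 613 and 478 to 625. Sox10 of that list was not tested, and 3 were higher, Egr2, Bcas1 and Gldn, while 7 of the 16 measured had a negative difference. The array medians of the sterol genes and the neuronal markers were both lower in dt27J, and those of the myelin markers were not. Their part in the sterol values was not tested.

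Adipocyte markers, measured for 12 of 14, had array medians of -0.45, -0.52 and 1.08 in WT and 1.37, 1.47 and -0.65 in dt27J. Their summed level ran from 19.1 to 49.9 in WT and from 23.0 to 89.1 in dt27J, with Lep and Retn not tested. They stood at 2.10 within the first date and at -1.20 within the second. In the second date 6 of the 12 fatty acid genes were below 0, among them Elovl6 (-0.97) and Fasn (-0.61). The 6 above 0 included Scd1 (1.03) and Fads1 (0.94). Of all 13675 named genes 8014 were below 0 within that date. The summed level of the spinal cord markers was high on WT 1 and WT 2 only. Within the second date their median was -0.11, though single genes ran from -1.66 (Gpr17) to 2.03 (Olig1). The sterol median there was -0.42 and the fatty acid median -0.01, beside -0.15 for all named genes. Skeletal muscle markers (12 of 12 measured) had a median of 1.87, with 5 higher at an adjusted p under 0.05, and summed levels of 19.9 to 67.3 in WT and 63.1 to 123 in dt27J. Satellite glia markers (9 of 10 measured) had a median of 0.14 with 2 higher, Cdh19 and Ednrb. Of these 9, 4 had a negative difference, among them Fabp7 (-0.96) and Slc1a3 (-1.23), and Cdh19 was well above background on 1 WT array. Macrophage markers (8 of 9) had a median of 0.42 with 1 higher, Aif1. By limma 1.35% of all named genes were higher and 1.52% lower. Of the spinal cord markers 1 was lower, Gpr17. The part of these markers in the member values was not tested.

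**Figure D5:**
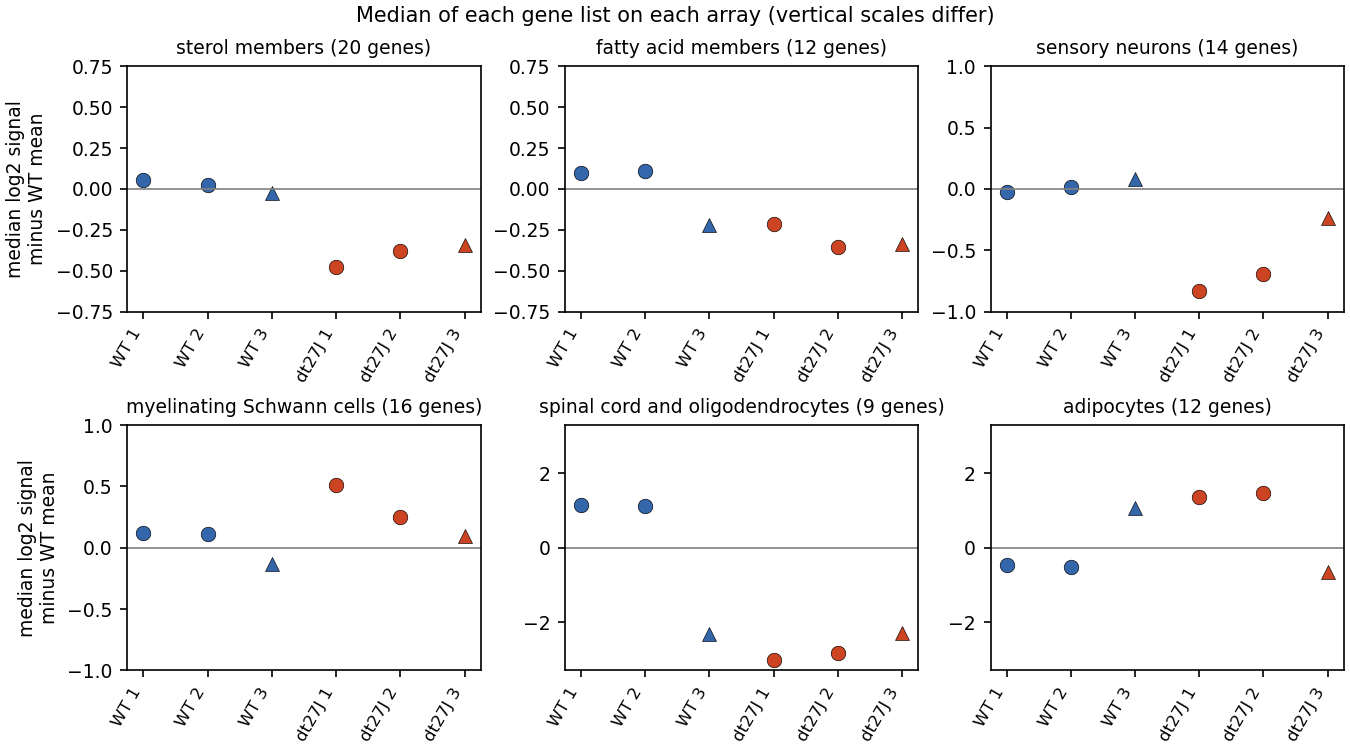
Median over the genes of a list of the log2 signal minus the WT mean of each gene, on each array (vertical axis, scales differ between panels), for the sterol and fatty acid members and for markers of 4 cell types. Sterol medians are 0.06 to -0.03 in WT and -0.34 to -0.48 in dt27J, sensory neuron markers are lower in dt27J as well, spinal cord markers are high on WT 1 and WT 2 only, and adipocyte markers are high on WT 3, dt27J 1 and dt27J 2.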

How the data were processed

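Total RNA of 3 WT and 3 dt27J ganglia was labelled with Cy3 and hybridised to 1 array each, per the labels' protocols. The deposited signal is an intensity made with Agilent Feature Extraction 10.5.1.1, background-subtracted and not normalized between arrays, per the file headers. A second set of values, the authors' deposited log2 table, is centred on the median of each probe; how it was normalized is not stated in the labels.

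Spots called outliers were left out and each array's 75th percentile (a signal of 369.5 to 580) was taken off the log2 signals, which were averaged per probe. Probes were named through RefSeq accessions (24844 of 41174). A probe was tested if well above background on all 3 arrays of a genotype (26248 probes); 63.2% to 71.5% of probes were so on an array, and no spot was saturated. Genotype and label date entered limma 3.58.1 in R 4.3.3, with Benjamini-Hochberg adjustment over all tested probes; the script was tested on simulated data. Precision is limited by the number of arrays, which leaves 3 residual degrees of freedom. P-values rest on the residual spread between these animals, which limma moderates with that of all tested probes (3.742 prior degrees of freedom). The residual also holds any difference of the genotype effect between the dates. The members, lists and alternatives were chosen with earlier results of these data known. Every member may be named; of other lists the 3 genes with the smallest p, and every measured gene of other sterol synthesis and uptake, of which some are not reported here. Alternatives were other scalings and background corrections, other filters, the authors' values, no date term, a replicate block, each array or date left out, and the mean of a gene's probes.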

Additional observations from a re-analysis of the deposited data

How the results depend on the processing

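The median difference of the sterol genes stayed below 0 in every alternative run: -0.41 with median scaling, -0.32 after normexp background correction, -0.33 after normexp with high local backgrounds replaced, -0.41 with the authors' deposited values, -0.33 in the first date alone, -0.37 with the mean of a gene's probes, and -0.41 to -0.33 with 1 array left out. The fatty acid median was -0.012 in the second date alone and -0.28 to -0.059 with 1 array left out. The sterol minus fatty acid contrast was -0.043 in the first date alone and -0.34 to -0.043 with 1 array left out.

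Counts of calls by limma depended on the settings, and the cause was not tested. All tested probes past the threshold were 358 after normexp, 1449 with high local backgrounds replaced, 0 without a filter on dim probes (8485 of 41086 at an unadjusted p under 0.05), 14 without the date term, 2 with the replicate block, 6805 in the first date alone and 0 to 6805 with 1 array left out (1 without WT 1, 0 without WT 2 or dt27J 1, 168 without dt27J 2). Member probes that passed as lower were 0 after normexp, without a filter, without the date term and with the replicate block, 2 with high local backgrounds replaced, 14 in the first date alone and 0 to 14 with 1 array left out; as higher, 1 in the first date alone and 0 to 1. Sterol genes that passed were 1 (Mvk) with high local backgrounds replaced, 1 (Tm7sf2) with the authors' values, 6 in the first date alone and 0 to 6 with 1 array left out, and fatty acid genes 3 and 0 to 3. Same-numbered samples share only a number (their deviations from the group means correlated at 0.22, -0.15 and 0.06), and under the replicate block the called Insig1 probe had an adjusted p of 0.111.

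The sign turned for some members, none of them called. In the first date alone this held for Acly (-0.094), Scd1 (-0.39), Ebp (0.071), Elovl6 (0.0092), Hsd17b7 (0.26), the dimmer Fasn probe (-0.14) and the 3 Cyp51 probes (-0.13, 0.11 and -0.38 in order of brightness). After normexp it held for Elovl5 (0.073), Hsd17b7 (0.085), an Acaca probe (0.0035), the dimmer Fasn probe (-0.061) and the Cyp51 probes (-0.0090, 0.0072 and -0.097), and with high local backgrounds replaced for Srebf1 (-0.0018) and the dimmer Fasn probe (-0.0039). With median scaling it held for Fa2h (0.038) and the dimmest Nsdhl probe (0.025), and with the mean of a gene's probes for Cyp51 (-0.011), Elovl5 (0.36), Srebf2 (-0.66) and Stard4 (0.12).
With 1 array left out, the sign turned at least once for 16 member probes: Cyp51 (-0.13 to 0.51), its middle probe (-0.56 to 0.11), its dimmest (-0.38 to 0.55), Hsd17b7 (-0.37 to 0.26), Elovl5 (-0.19 to 0.066), the dimmer Hmgcs1 probe (-0.85 to 0.041), Srebf2 (-0.36 to 0.40), Fads1 (-0.64 to 0.22), Srebf1 (-0.060 to 0.069), Fa2h (-0.17 to 0.088), the dimmest Nsdhl probe (-0.26 to 0.13), Ebp (-0.38 to 0.071), Acly (-0.094 to 0.21), Scd1 (-0.39 to 0.32), Elovl6 (-0.49 to 0.0092), the dimmer Fasn probe (-0.14 to 0.073).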

Other observations

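Lists of sterol export, fatty acid oxidation and sphingolipid synthesis are given here by their values. Of 11 measured genes of sterol export and storage, 7 had a negative difference, with a median of -0.32, and 2 passed the test in opposite directions. Mylip, which is switched on by sterol-sensing nuclear receptors, read 0.62, 0.37 and 0.06 in WT and 2.57, 2.01 and 1.67 in dt27J and rose by 1.73 on the log2 scale (SE 0.23, adjusted p = 0.0413) by limma. Lcat, the plasma enzyme that esterifies cholesterol, exceeded background on each WT array but on 0 of 3 dt27J arrays, so that its signal in dt27J was lower by at least 2.67-fold (limma, adjusted p = 0.0376). It read -3.79, -3.38 and -5.72 in WT and -6.07, -6.53 and -7.72 in dt27J, so the bound rests on WT 1 and WT 2, the arrays with high spinal cord and oligodendrocyte markers (summed levels of 25.5 and 21.3, against 2.33 on WT 3), whose part in it was not tested. Nr1h3, the gene of such a nuclear receptor, stood at 1.102 (SE 0.27, adjusted p = 0.0656).

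Fatty acid oxidation genes had a median of 0.04 over 15 genes, 8 of them positive. Pdk4, the kinase that turns pyruvate dehydrogenase off, read -1.50, -1.63 and -1.13 in WT and -0.12, 0.29 and -0.33 in dt27J and rose by 1.37 on the log2 scale (SE 0.26, adjusted p = 0.0476). Sphingolipid and galactolipid genes beside Fa2h and Ugt8a had a median of -0.05 over 12 measured genes, with 0 past the test by limma and 1 at an unadjusted p under 0.05, Sptlc1 at 0.53 (SE 0.20).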
